A study of Mus musculus with 3 samples.

Results

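The genes described here are 9 parts of the interferon signalling chain: the receptor subunits Ifnar1, Ifnar2, Ifngr1 and Ifngr2, the kinase Jak1, and the transcription factors Stat2, Irf1, Irf7 and Irf9. They were chosen by name, as the core of the chain, out of 27998 genes in each deposited count table. The tables come from droplet single-cell RNA sequencing (10x Genomics, read at the 3′ end of each transcript) of CD11b+ cells, magnetically sorted from mouse fetal brain at stage E18.5, shortly before birth. There were 3 libraries, 1 for each group. The first was from the Ncr1-cre genotype with saline, the second from Ncr1-cre with poly(I:C), and the third, labelled Gzmb-cko, from the genotype Ncr1-cre;gzmbf/f with poly(I:C). Poly(I:C), a mimic of viral double-stranded RNA, triggers interferon production. The Ncr1 promoter directs cre to natural killer cells and kindred lymphoid cells, whose granules hold granzyme B, the protease made from Gzmb. All 3 groups thus carry Ncr1-cre, and no Gzmb-cko library with saline was analysed here. The sources used here do not state the dose, the day of injection, the number of fetuses pooled, or whose genotype (the dam's or the fetuses') a label gives. Values in threes below follow the order Ncr1-cre saline, Ncr1-cre poly(I:C) and Gzmb-cko poly(I:C).

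Type I interferons bind a receptor of the subunits Ifnar1 and Ifnar2, and interferon gamma binds one of Ifngr1 and Ifngr2. Jak1, with a partner kinase, phosphorylates STAT proteins at either receptor. After a type I signal a complex that includes Stat2 and Irf9 binds interferon-stimulated response elements, whereas the interferon gamma route acts at gamma-activated sites. Irf1 is a classical early target of the gamma route, and Irf7 is both an interferon-stimulated gene and the factor that amplifies transcription of the type I interferon genes. In the brain, microglia and the macrophages of the brain borders carry both receptors, and small numbers of microglia with a strong interferon signature are known from development, ageing and infection.

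The 9 genes lie on 6 chromosomes (GRCm38, GENCODE annotation), and all are protein-coding. Ifnar2 (chr16:91372783-91405589), Ifnar1 (chr16:91485238-91507441) and Ifngr2 (chr16:91547072-91565623) stand side by side on the plus strand, in the cluster that also holds the interleukin 10 receptor gene Il10rb. Ifngr1 (chr10:19591949-19610229), Stat2 (chr10:128270559-128292849), Irf1 (chr11:53770014-53778374) and Irf9 (chr14:55603571-55610030) are on the plus strand, Jak1 (chr4:101152367-101265282) and Irf7 (chr7:141262706-141266481) on the minus strand. Exons of Ifnar2 overlap those of Gm21970 on the same strand, and exons of Irf9 those of Rnf31, so counts of both members are uncertain where such reads were split. Raver2, Gm17334 and Phrf1 lie antisense to Jak1, Irf1 and Irf7.

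Promoter letters are shown for Stat2, Irf1 and Irf7, the members that stood highest in cells with other interferon-stimulated genes, as described further on. The windows are the bases before the RefSeq start of each gene, and all 9 members had at least 1 window, 11 in all. A response element was searched as GAAA, any 2 bases and GAAA again, and a gamma-activated site as TTCNNNGAA, each on both strands; neither search excluded overlap with the other. Of 32851 RefSeq windows of 250 bases, 2.98% held the first and 7.02% the second. The printed stretches are 5′ to 3′ on the gene's strand, with matched letters in capitals, from chr10:128270248-128270497 for Stat2, chr11:53769764-53770013 for Irf1 and chr7:141266482-141266674 for Irf7 (RefSeq, GRCm38.p6).
Stat2: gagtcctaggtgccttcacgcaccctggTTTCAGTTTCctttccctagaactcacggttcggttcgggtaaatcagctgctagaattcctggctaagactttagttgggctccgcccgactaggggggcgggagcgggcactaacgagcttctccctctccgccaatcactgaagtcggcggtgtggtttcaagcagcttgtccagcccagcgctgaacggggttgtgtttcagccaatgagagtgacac
Irf1: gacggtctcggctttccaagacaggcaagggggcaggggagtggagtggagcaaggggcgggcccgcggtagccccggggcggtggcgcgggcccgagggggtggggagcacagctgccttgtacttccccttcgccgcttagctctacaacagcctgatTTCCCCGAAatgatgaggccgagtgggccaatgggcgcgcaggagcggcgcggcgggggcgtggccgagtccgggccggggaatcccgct
Irf7: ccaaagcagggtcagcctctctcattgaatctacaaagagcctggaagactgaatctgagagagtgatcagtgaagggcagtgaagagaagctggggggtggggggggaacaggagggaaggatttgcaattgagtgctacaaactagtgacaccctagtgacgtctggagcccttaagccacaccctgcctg
Stat2 held a response element, TTTCAGTTTC on this strand, 222 bases before the start. Irf1 held a gamma-activated site, TTCCCCGAA, 90 bases before the start, in 1 of its 2 windows. The other match was a gamma-activated site in Ifnar2, 214 bases before the start, and 6 members held neither run of letters in these windows. A match is a run of letters and not a shown binding site.

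Cells were assigned by gates on a few transcripts, among cells with at least 500 genes and at most 10% mitochondrial UMIs (unique molecular identifiers, 1 for each captured transcript). Microglia had P2ry12 and no Mrc1, border macrophages had Mrc1 and Pf4, and monocytes had Ccr2 and Ly6c2. Choroid plexus cells had Ttr at 5% or more of their UMIs, and neurons had Stmn2 and Dcx; the last pair of gates holds cells that a CD11b sort should remove. Microglia numbered 5452, 4519 and 5399, border macrophages 1125, 686 and 1896, monocytes 718, 510 and 465, choroid plexus cells 530, 937 and 1184, and neurons 189, 377 and 175. A cell could pass more than 1 gate, as 470, 277 and 347 did. All 7 microglial, 7 border macrophage and 6 monocyte markers were detected in the gates named for them.

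The libraries held 89295907, 85442198 and 105574073 UMIs in 13820, 14887 and 15306 barcodes, and 63 to 71 barcodes were shared by each pair of libraries. Barcodes of the saline library had at least 3133 UMIs and those of the other libraries at least 500. Hemoglobin transcripts made up 9.75%, 5.45% and 2.53% of microglial UMIs and 9.64%, 3.47% and 2.27% of those of monocytes. Gzmb itself gave 61, 127 and 2 UMIs, in 4, 6 and 1 cells, which is too few to check the third label in the lineage that carries the recombinase: Ncr1 was seen in 3, 3 and 0 cells. With 1 library a group there is no spread between samples and no test. A difference below therefore compares libraries, and its 95% interval (exact Poisson for a level, exact binomial for a ratio or a share) covers counting error only.

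Levels are UMIs of the gene per 1000000 UMIs of the gate (CPM), and each gene is compared only with itself. Of the 9 members, 7 were highest in monocytes in all 3 libraries, the exceptions being Ifnar1 and Ifnar2. Ifnar1 was highest in border macrophages, at 52.9, 74.9 and 58.2 CPM, with overlapping intervals for the next gate in the saline and the Gzmb-cko libraries. Ifnar2 was highest in border macrophages in the Ncr1-cre libraries (113 and 173 CPM) and in monocytes in the Gzmb-cko library (143 CPM against 140 in border macrophages), and the intervals of these gates overlapped in each library. Monocytes and microglia were thus close in the type I receptor subunits, at ratios of 1.10, 1.01 and 1.09 for Ifnar1 and 1.15, 1.32 and 1.22 for Ifnar2. The gamma receptor subunits were likewise close, at 1.04, 1.07 and 1.13 for Ifngr1 and 1.09, 1.15 and 1.07 for Ifngr2. Ifngr1 was lower in border macrophages than in microglia, at 0.830, 0.791 and 0.765 of the microglial level.

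**Figure D1:**
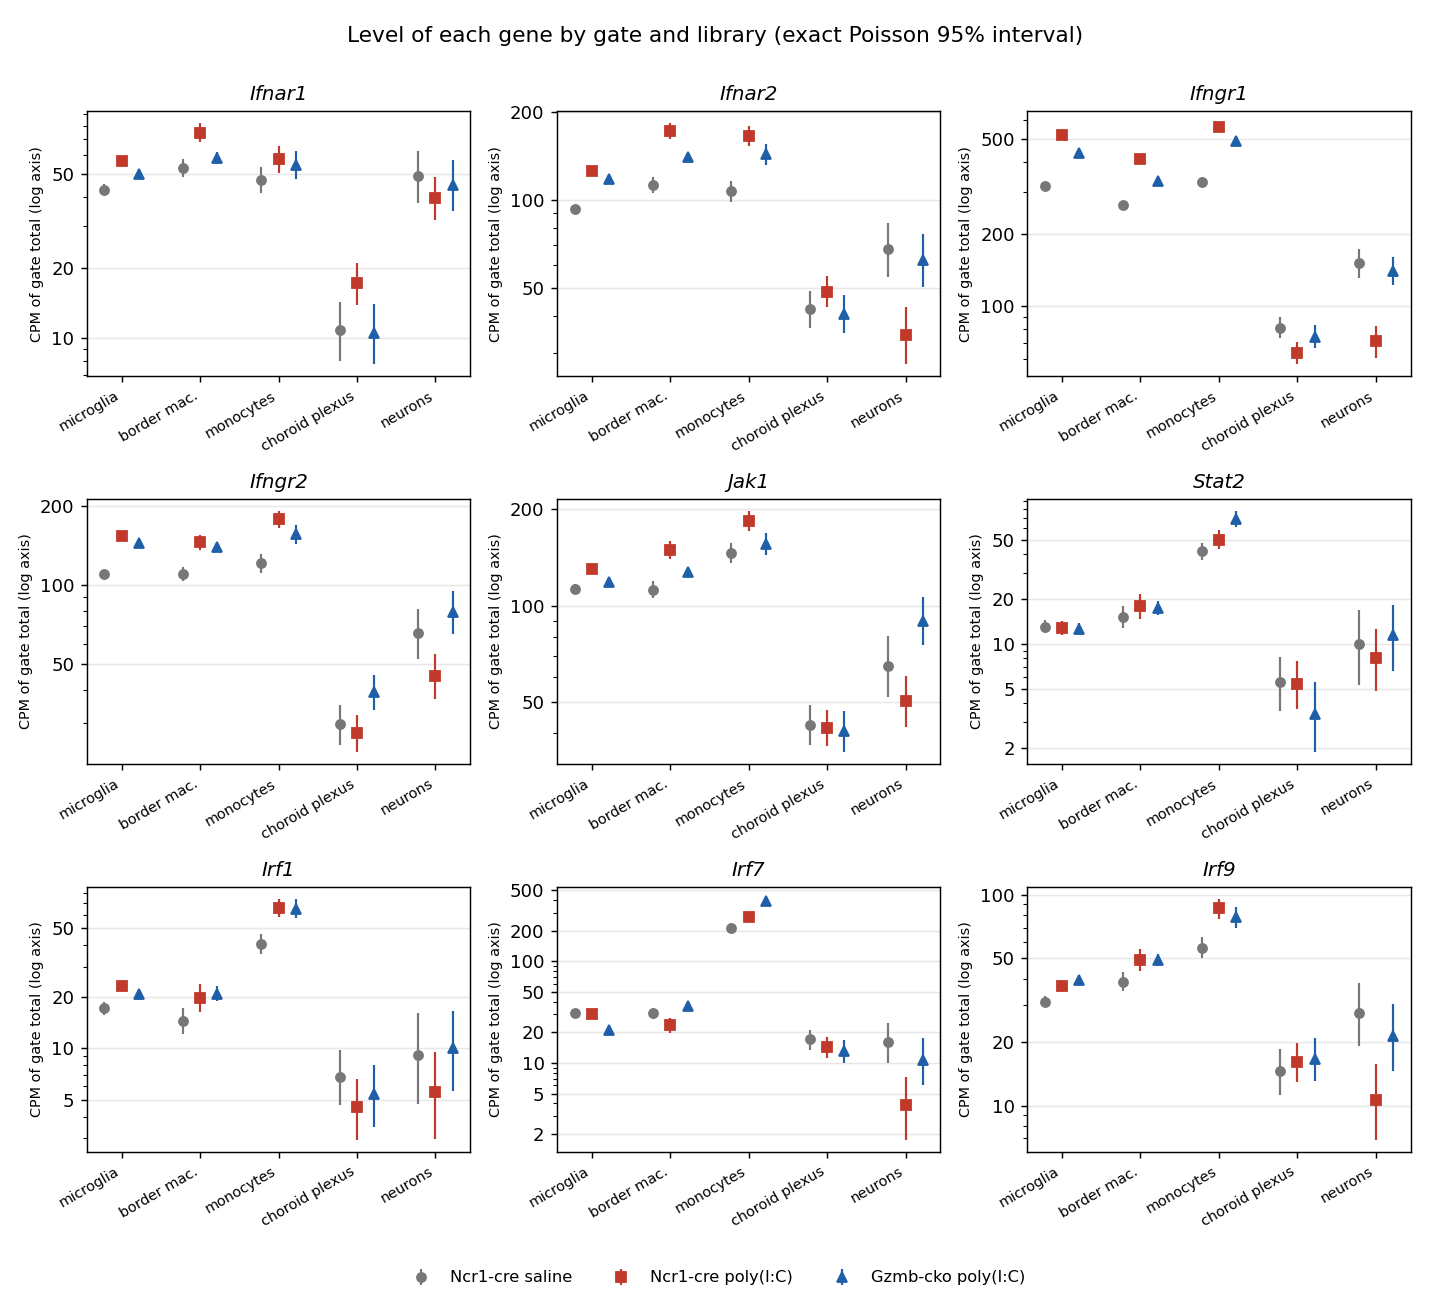
Level of each of the 9 genes (CPM of the gate total, log axis) in 5 gates, with a point for each library and its exact Poisson 95% interval. The receptor subunits and Jak1 differ less than 1.5-fold between the 3 myeloid gates, whereas Stat2, Irf1, Irf7 and Irf9 peak in monocytes, with Irf7 at 210, 273 and 391 CPM there against 30.9, 30.3 and 21.0 in microglia.

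Downstream of the receptors the myeloid gates parted. Stat2, the type I specific STAT, stood 3.18, 3.93 and 5.47 times as high in monocytes as in microglia, and Irf1 2.38, 2.84 and 3.16 times. Irf9, the DNA-binding partner of Stat2, stood 1.81, 2.32 and 1.98 times as high. Irf7 had the widest gap, at 6.80, 9.02 and 18.6 times. These 4 members were at least 1.5-fold higher in monocytes in each library, a size reached by 12.2%, 16.6% and 15.2% of all genes with at least 10 CPM in that comparison. Jak1, at 1.29, 1.41 and 1.32 times the microglial level, did not reach it. With cells that passed exactly 1 gate, the ratio for Irf7 was 10.4, 11.9 and 32.4. The shares of microglia with Irf7 or Stat2, at equal depth, were not separated from those of choroid plexus cells in 2 of the 3 libraries, as given further on. By level, both members were at least 1.5-fold lower in choroid plexus cells than in microglia in each library. The folds of monocytes over microglia are still not taken as exact. Border macrophages had no member 1.5-fold above microglia in the Ncr1-cre libraries (3.86% and 5.9% of all genes were), and 1 in the Gzmb-cko library (4.91% of all genes), which was Irf7 at 1.72-fold.

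The share of cells with a transcript was compared after each cell was thinned, since the gates differ in depth. Droplets also pick up free RNA, and no gate here is known to lack all 9 genes, so shares stand beside those of choroid plexus cells and of hemoglobin cells (hemoglobin genes at 30% or more of UMIs) that passed none of the 5 gates. Hemoglobin fills much of the latter, so each cell was thinned to 2000 UMIs outside the hemoglobin genes, a comparison chosen after the data were seen. This left 5413, 4048 and 5222 microglia, 524, 663 and 824 choroid plexus cells, and 364, 127 and 54 of those hemoglobin cells. Shallower cells were left out, among them 6, 274 and 360 choroid plexus cells. With the shallower cells included, median UMIs before thinning were 4809, 5176 and 5780 in microglia and 5533, 3167 and 2941.5 in choroid plexus cells. In the hemoglobin cells they were 9121, 14058 and 13734.5. The hemoglobin cells were not free of myeloid RNA: outside the hemoglobin genes, the 7 microglial markers summed to 5925, 6002 and 6753 CPM in them. They summed to 7947, 9575 and 9034 in microglia and 1358, 777 and 1276 in choroid plexus cells. Before thinning, 26.8%, 10.5% and 12.5% of choroid plexus cells (142, 98 and 148) also passed the microglial gate, and these were kept in both gates.

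Ifngr1 was seen in 52.2%, 64.8% and 58.4% of thinned microglia (79.7%, 82.8% and 86.4% unthinned). The share was 14.3%, 9.65% and 10.9% of choroid plexus cells (33.4%, 16.9% and 13.3% unthinned) and 38.2%, 50.4% and 44.4% of the hemoglobin cells (56.2%, 54.4% and 56.6% unthinned). All 4 receptor subunits had intervals above those of choroid plexus cells in each myeloid gate of each library. Against the hemoglobin cells far fewer members stood apart: 1, 2 and 0 of 9 in microglia, 0, 1 and 0 in border macrophages, and 4, 6 and 2 in monocytes. These counts also depend on the number of hemoglobin cells, 364, 127 and 54, which widens their intervals. For Ifngr1 in the Gzmb-cko library the interval ran from 30.9% to 58.6%.

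Irf7 was seen in 4.88%, 3.73% and 2.51% of thinned microglia (8.95%, 6.15% and 6.04% unthinned). It was seen in 3.24%, 1.21% and 1.33% of choroid plexus cells (8.68%, 4.70% and 3.13% unthinned) and in 5.77%, 0.787% and 3.70% of the hemoglobin cells (9.29%, 2.92% and 5.26% unthinned). The microglial interval for Irf7 lay above that of choroid plexus cells in the second library, Ncr1-cre with poly(I:C), and overlapped it in the other two, and it overlapped that of the hemoglobin cells in each. In monocytes Irf7 was seen in 35.4%, 36.02% and 49.7% (58.9%, 63.5% and 80.0% unthinned), above both in each library. Stat2, in 2.68%, 2.47% and 2.51% of thinned microglia, was above choroid plexus cells in the Gzmb-cko library alone.

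In choroid plexus cells and neurons, 0 of the 9 members had an interval above that of the hemoglobin cells in any library. Of the 9, 9, 7 and 9 in choroid plexus cells and 9, 7 and 7 in neurons had a share at or below it. Ifnar1 was the 1 member above choroid plexus cells in neurons, in each library. All 9 members were at least 1.5-fold lower in choroid plexus cells than in microglia, as were 41.4%, 45.1% and 46.2% of all genes. For poly(I:C) over saline all 9 were lower in the neuron gate, 5 of them at least 1.5-fold, where 14.1% of 8948 genes were. For Gzmb-cko over Ncr1-cre, which shares the Ncr1-cre poly(I:C) library, all 9 were higher and 7 at least 1.5-fold, where 14.3% of genes were. The summed microglial markers in that gate were likewise lowest in the shared library, at 2889, 1145 and 2103 CPM, and their part in the neuron values was not tested.

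**Figure D2:**
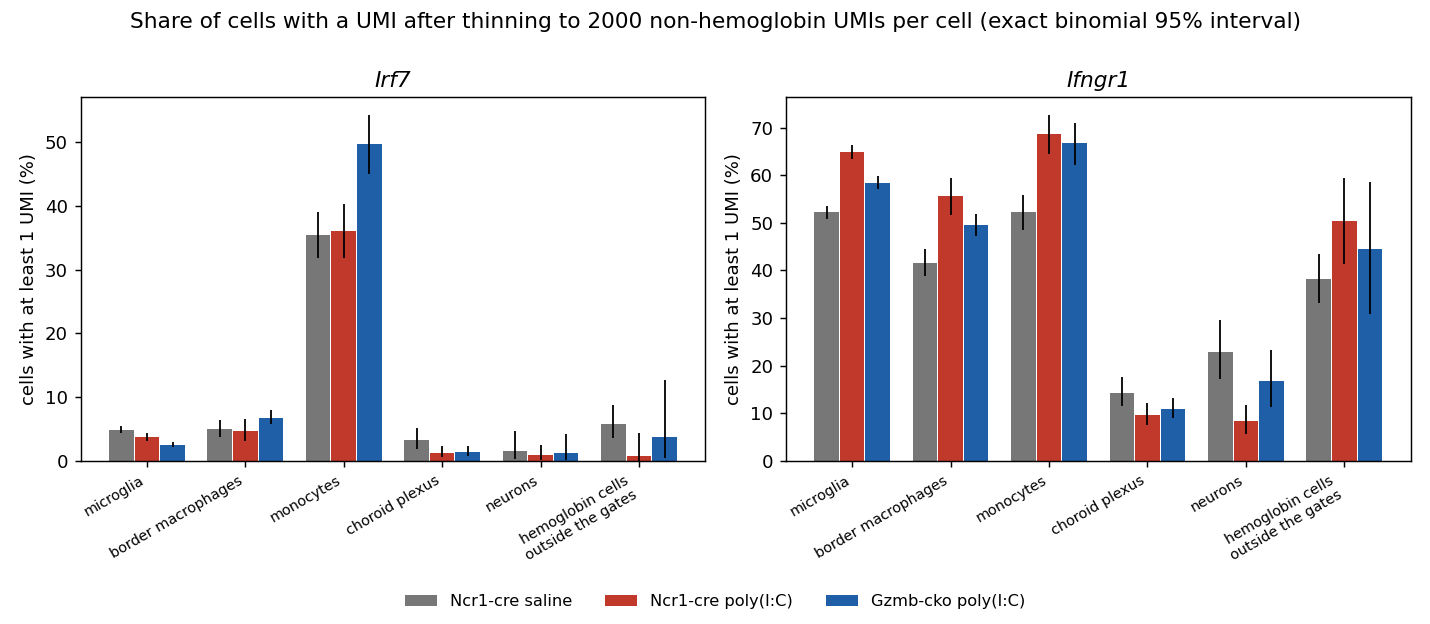
Share of cells (%) with at least 1 UMI of Irf7 (left) or Ifngr1 (right) after each cell was thinned to 2000 UMIs outside the hemoglobin genes, by gate and library, with exact binomial 95% intervals. The rightmost bars are the hemoglobin cells outside the gates: Irf7 stands above them in monocytes, whereas Ifngr1 stands at 41.6% to 68.7% in the 3 myeloid gates and at 38.2% to 50.4% in the hemoglobin cells.

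The first comparison between libraries, poly(I:C) over saline within the Ncr1-cre genotype, asks how the chain differs after the viral mimic. In microglia the receptor subunits were higher in the poly(I:C) library. Ifngr1, the ligand-binding chain for interferon gamma, was at 319 (313 to 325), 521 (512 to 529) and 435 (428 to 442) CPM, so the saline library was lowest and no intervals overlapped. The poly(I:C) to saline ratio of Ifngr1 was 1.63 (1.59 to 1.67). Ifngr2, the signalling chain, was at 110, 154 and 145 CPM, a ratio of 1.39 (1.33 to 1.46). Ifnar1 was at 42.8, 56.9 and 50.0 CPM, a ratio of 1.33 (1.23 to 1.43), and Ifnar2 at 93.1, 126 and 118 CPM, a ratio of 1.35 (1.28 to 1.42). In all 4 the saline library was the lowest of the 3.

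The kinase and the factors other than Irf1 differed less between these libraries. Jak1 was at 113, 131 and 119 CPM in microglia, with a ratio of 1.16 (1.10 to 1.21). Irf1 was at 17.1, 23.2 and 20.7 CPM, with a ratio of 1.36 (1.21 to 1.53), and Irf9 at 31.1, 37.2 and 39.6 CPM, with a ratio of 1.19 (1.09 to 1.30). The remaining factors stood at nearly the same level. Stat2 was at 13.1, 12.7 and 12.6 CPM, a ratio of 0.973 (0.842 to 1.12), and Irf7 at 30.9, 30.3 and 21.0 CPM, a ratio of 0.979 (0.891 to 1.07). The sign for these 2 factors was not stable, with Stat2 higher in 5 and Irf7 in 6 of 16 settings of filter, gate and scaling, whereas the other 7 members were higher in all 16. Of these and all later counts of 16 settings, 1 setting lowered only the minimum for background genes to 1 CPM. It leaves every member ratio as reported.

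Over the 9 members the median log2 ratio in microglia was 0.41, and over all 7847 genes with at least 10 CPM it was 0.17. Ifngr1 was the 1 member at least 1.5-fold higher, where 4.17% of all genes were, and 0 members were 1.5-fold lower, where 1.33% were. Scaling by TMM (trimmed mean of M values) brought the median of all genes from 0.17 to 0.0058, and Ifngr1 then stood at a log2 ratio of 0.53, under 1.5-fold. It passed 1.5-fold in 13 of 16 settings, with log2 ratios from 0.53 to 0.80. The 2 poly(I:C) libraries also held fewer hemoglobin transcripts; without the hemoglobin cells, an alternative added after the data were seen, the Ifngr1 ratio was 1.58. In the same gate the summed neutrophil markers stood at 4800, 2600 and 1590 CPM and the microglial markers at 7172, 9053 and 8805 CPM, and their part in these ratios was not tested.

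Ifngr1 had the highest ratio in the other myeloid gates too. In border macrophages Ifngr1 was at 265, 412 and 333 CPM, a ratio of 1.55 (1.47 to 1.64), and Ifnar2 at 113, 173 and 140 CPM, a ratio of 1.53 (1.41 to 1.67). These were the 2 members at least 1.5-fold higher there (8.87% of 7952 genes were), in 11 and 10 of 16 settings, and under TMM both fell short, with log2 ratios of 0.46 and 0.44. Irf7 was the 1 member lower in this gate, at 30.6 CPM with saline and 23.4 with poly(I:C), a ratio of 0.766 (0.621 to 0.940), and was lower in 16 of 16 settings. The makeup of this gate moved as well, with summed border macrophage markers at 4109, 7567 and 6534 CPM, neutrophil markers at 2480, 497 and 1020 CPM and monocyte markers at 302, 122 and 176 CPM, whose part was not tested. In monocytes Ifngr1 was at 331, 559 and 491 CPM, a ratio of 1.69 (1.58 to 1.80), Ifnar2 at 107, 166 and 143 CPM, a ratio of 1.55 (1.38 to 1.74), and Ifngr2 at 121, 177 and 156 CPM, a ratio of 1.47 (1.32 to 1.64). All 9 members were higher in monocytes of the poly(I:C) library and 4 were at least 1.5-fold higher, where 13.9% of 7387 genes were. The other 2 of these were factors. Irf1 was at 40.7, 66.0 and 65.3 CPM, with a ratio of 1.62 (1.35 to 1.96), and Irf9 at 56.2, 86.2 and 78.5 CPM, with a ratio of 1.53 (1.31 to 1.80).

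These monocyte calls depended on the gate and the scaling. Under TMM all 4 fell under 1.5-fold, with log2 ratios of 0.41 for Ifnar2, 0.54 for Ifngr1, 0.48 for Irf1 and 0.40 for Irf9, and with cells of exactly 1 gate 1 member was past it, where 11.9% of genes were. Without hemoglobin cells Ifnar2 (1.49) and Irf9 (1.44) fell short as well. The median log2 ratio was 0.55 over the members and 0.22 over all genes. The monocyte gate changed in its makeup at the same time: the summed level of 6 neutrophil markers in it was 13395, 7307 and 6133 CPM, that of 7 microglial markers 2261, 1224 and 2036 CPM, and that of the 6 monocyte markers 5317, 7377 and 8122 CPM. Their part in the result was not tested.

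**Figure D3:**
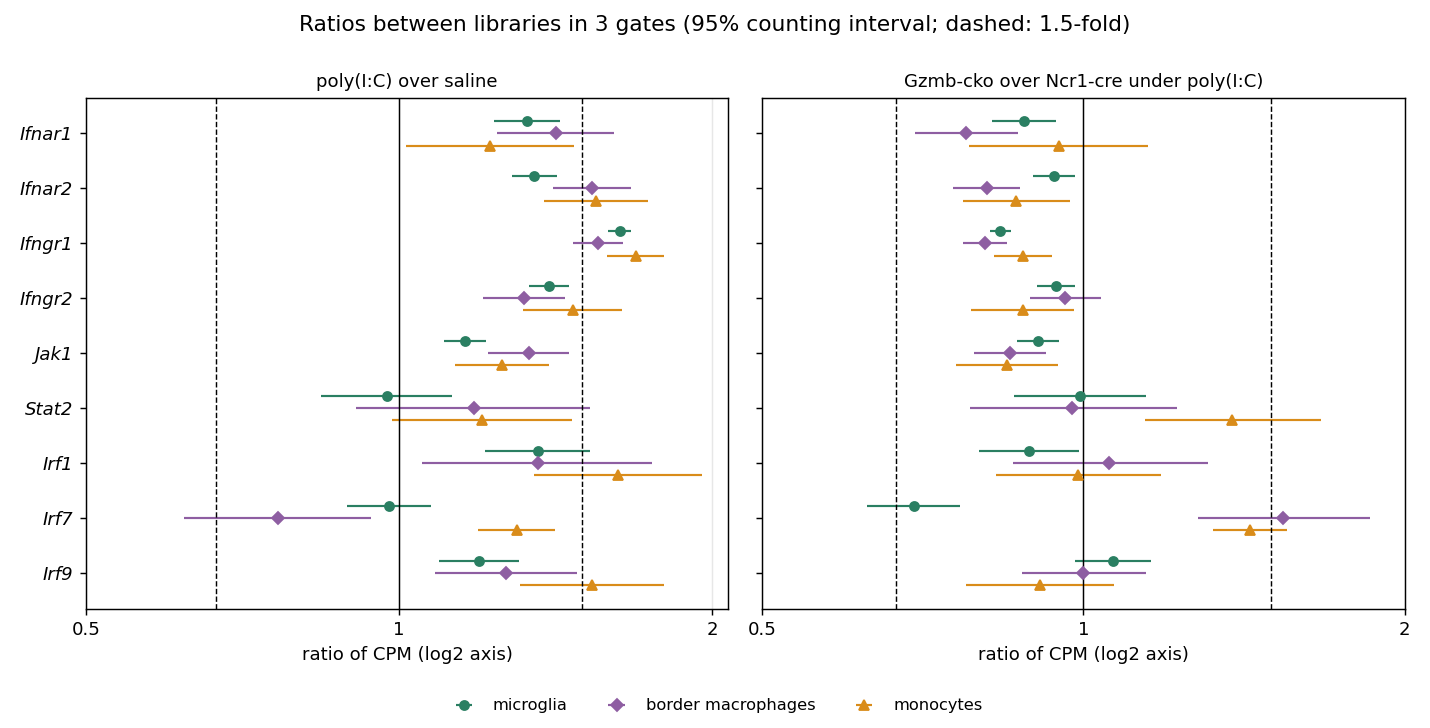
Ratio of the levels between libraries (log2 axis) for each gene in microglia, border macrophages and monocytes, with 95% counting intervals and dashed lines at 1.5-fold. For poly(I:C) over saline the receptor subunits lie to the right of 1 in every gate, and for Gzmb-cko over Ncr1-cre Irf7 lies below 1 in microglia (0.693) and above it in border macrophages (1.54) and monocytes (1.43).

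The second comparison, Gzmb-cko over Ncr1-cre with poly(I:C) in both, asks how the chain differs without granzyme B in Ncr1 lineage cells. It shares the Ncr1-cre poly(I:C) library with the first, so a value that is high in that library pushes both ratios apart, and the opposite signs are not read as separate results. In microglia 8 of 9 members were lower in the Gzmb-cko library. The ratio was 0.836 (0.817 to 0.855) for Ifngr1 and 0.879 (0.821 to 0.942) for Ifnar1, and lay between these and 1 for Ifnar2, Ifngr2, Jak1, Stat2 and Irf1. Irf9 was the higher one, at 1.07 (0.982 to 1.16), an interval that holds 1. No member was 1.5-fold lower, where 2.19% of 7847 genes were, or 1.5-fold higher, where 0.268% were, and the median log2 ratio was -0.14 over the members and -0.03 over all genes.

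Irf7 had the lowest ratio in microglia, 0.693 (0.627 to 0.766), or 1.44-fold lower in the Gzmb-cko library. It was lower in all 16 settings and past 1.5-fold in 4 of them, with log2 ratios from -0.83 to -0.20. Cells with Xist and no Y genes were 41.3%, 47.8% and 32.0% of microglia, with Irf7 at 32.6, 34.0 and 20.9 CPM. Those with Y genes and no Xist were 26.2%, 19.8% and 37.2%, with Irf7 at 24.8, 25.8 and 22.6 CPM. In the latter the intervals of the poly(I:C) libraries overlapped (21.9 to 30.3 and 20.2 to 25.2 CPM). The part of this makeup in the Irf7 ratio was not tested. Among microglia that passed exactly 1 gate Irf7 was at 23.3, 23.8 and 13.4 CPM, a ratio of 0.561 (0.496 to 0.635), where 1.74% of genes were 1.5-fold lower. In border macrophages the order was the opposite: Irf7 was at 30.6 (27.2 to 34.3), 23.4 (19.7 to 27.7) and 36.1 (33.5 to 38.8) CPM, the Ncr1-cre poly(I:C) library being lowest. Its Gzmb-cko to Ncr1-cre ratio there was 1.54 (1.28 to 1.86), the 1 member at least 1.5-fold higher, where 0.843% of 7952 genes were. It was higher in 16 of 16 settings and past 1.5-fold in 13; with cells of exactly 1 gate it was 1.37 and without hemoglobin cells 1.48.

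In monocytes Irf7 was at 210 (198 to 223), 273 (257 to 290) and 391 (372 to 412) CPM, with no overlap between libraries. The Gzmb-cko to Ncr1-cre ratio was 1.43 (1.32 to 1.55), short of 1.5-fold, and 1.53 with cells of exactly 1 gate. Stat2 was at 41.6, 50.0 and 69.0 CPM, a ratio of 1.38 (1.14 to 1.67). Irf7 and Stat2 were the 2 members higher in Gzmb-cko monocytes, and the other 7, Irf9 among them, were lower. The lower ones ranged from 0.848 for Jak1 to 0.989 for Irf1. No member was 1.5-fold higher or lower in this gate, where 3.84% of 7387 genes were in each direction. Whether Irf7 differs between gates in this comparison was not tested.

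Cells that passed no gate, hemoglobin cells aside, numbered 4158, 3837 and 4601. In them the median log2 ratio of poly(I:C) over saline was 0.28 over the members and 0.14 over all genes, with 0 members 1.5-fold higher, where 4.49% of 8086 genes were.

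Irf7 in microglia came from few cells. It was absent from 4964 of 5452, 4241 of 4519 and 5073 of 5399 microglia, and the highest cell held 12, 18 and 20 UMIs. The share of a gene's UMIs in the top 1% of microglia depends on its level. It was 4.40%, 4.37% and 3.97% for Ifngr1, which stood far higher than Irf7. Among the sparse factors it was 26.8%, 30.1% and 24.8% for Stat2, 20.5%, 21.6% and 17.4% for Irf1, and 12.9%, 12.4% and 11.8% for Irf9. For Irf7 the top 1% of microglia held 31.8%, 47.3% and 49.2% of its UMIs. To describe those cells without using Irf7, microglia were marked where at least 3 of 15 other interferon-stimulated genes were seen (Ifit1, Ifit2, Ifit3, Rsad2, Isg15, Oasl1, Oasl2, Usp18, Cmpk2, Rtp4, Ifi44, Oas2, Oas3, Mx1 and Xaf1). These were 395, 251 and 340 cells, or 7.25%, 5.55% and 6.30% of microglia. Being set by a count of genes, they are a range and not a type: 108, 60 and 122 of them had exactly 3, and 279, 143 and 286 microglia had exactly 2. At 2000 UMIs outside the hemoglobin genes the shares were 3.40%, 3.14% and 2.37% of microglia, 2.48%, 1.96% and 0.728% of choroid plexus cells, and 17 of 364, 3 of 127 and 0 of 54 hemoglobin cells outside the gates. The microglial interval lay above that of choroid plexus cells in the Gzmb-cko library alone.

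The marked microglia held 67.0%, 78.1% and 77.5% of all microglial Irf7 UMIs (675 of 1008, 636 of 814 and 586 of 756) in 9.57%, 7.51% and 8.25% of microglial UMIs. Their Irf7 level was 216 CPM against 11.3 in the other microglia with saline, 315 against 7.16 with poly(I:C), and 197 against 5.14 in the Gzmb-cko library. The ratio was 19.2 (16.8 to 21.9), 44.0 (37.2 to 52.3) and 38.3 (32.3 to 45.8). At 2000 UMIs per cell it was 19.2, 40.7 and 43.3, about as large as without thinning. Without thinning, both kinds of microglia thus had less Irf7 in the Gzmb-cko library than in the other poly(I:C) library. The marking depends on depth, and median UMIs of microglia were 5176 in the second library and 5780 in the third. At 2000 UMIs per cell, 123 marked cells of the second held 133 of 238 Irf7 UMIs. In the third, 117 marked cells held 114 of 229. Whether each kind had less Irf7 at equal depth was not tested.

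**Figure D4:**
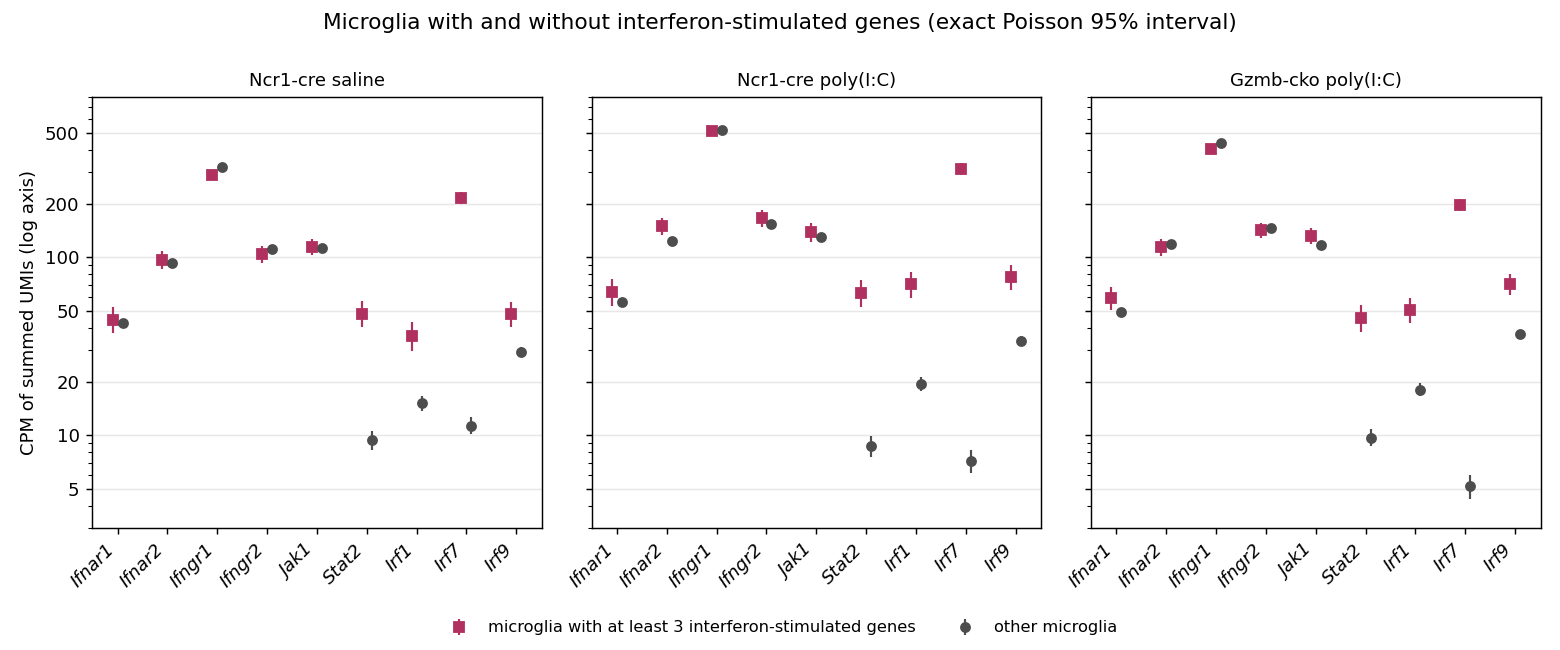
Level of each gene (CPM of summed UMIs, log axis) in microglia with at least 3 of 15 interferon-stimulated genes and in the other microglia, by library, with exact Poisson 95% intervals. Irf7, Stat2, Irf1 and Irf9 are higher in the marked cells of each library (19.2, 44.0 and 38.3-fold for Irf7), whereas the receptor subunits and Jak1 lie close together.

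The other factors followed with smaller gaps. Stat2 stood 5.14, 7.28 and 4.69 times as high in the marked microglia, Irf1 2.38, 3.62 and 2.80 times, and Irf9 1.63, 2.28 and 1.92 times. These 4 were the members at least 1.5-fold higher, where 5.53%, 7.66% and 5.57% of all genes were. Ifngr1, by contrast, stood at 0.904 (0.844 to 0.968), 0.990 (0.928 to 1.05) and 0.923 (0.869 to 0.979) of the level in other microglia. At 2000 UMIs per cell, Irf7 was seen in 14.6%, 21.8% and 14.3% of microglia with Stat2 and in 3.92%, 3.002% and 2.52% of those without it. That rests on 18, 24 and 16 cells with both.

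Markers of other cells moved with this class. The median marked cell held 34, 45 and 56 UMIs of the 7 microglial markers, against 41, 54 and 57 in the other microglia. It held 6, 2 and 1 UMIs of the 6 monocyte markers, against 0 in the other microglia of each library. As a summed level the microglial markers were lower in the marked cells of the Ncr1-cre libraries. They stood at 4514 against 7453 CPM with saline and 5568 against 9336 CPM with poly(I:C). The summed monocyte marker level was 2155, 2746 and 2603 CPM in the marked cells and 207, 110 and 72.6 CPM in the others, and that of the 6 neutrophil markers 7251, 4610 and 8580 against 4541, 2437 and 962 CPM. Their part in the Irf7 result was not tested. Among microglia that passed exactly 1 gate, monocyte markers were still at 975, 1028 and 646 against 126, 62.1 and 51.6 CPM, and the marked cells still held 59.4%, 72.8% and 67.0% of Irf7 UMIs.

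The same split gave the same direction for Irf7 in border macrophages and monocytes, with smaller gaps than in microglia. In border macrophages the unthinned Irf7 level was 86.9 against 14.1, 71.1 against 7.84 and 86.7 against 11.2 CPM in cells with and without the 3 genes. The share of such cells at 2000 UMIs of all genes was 2.84%, 6.24% and 6.95% (18.2%, 20.1% and 28.3% unthinned). Intervals of the poly(I:C) libraries overlapped at 2000 UMIs and did not overlap unthinned (17.2 to 23.3% and 26.3 to 30.4%). At 2000 UMIs outside the hemoglobin genes, as in the microglial shares above, the share was 4.72%, 6.24% and 6.84%. The intervals of the Ncr1-cre libraries then overlapped (3.55 to 6.12% and 4.53 to 8.34%). The Irf7 levels within the marked cells of the poly(I:C) libraries had overlapping intervals (58.1 to 86.1 and 79.8 to 94.1 CPM). In monocytes marked cells made up 29.2%, 35.6% and 45.6% at 2000 UMIs of all genes (62.7%, 63.9% and 80.6% unthinned). Outside the hemoglobin genes they made up 30.8%, 37.2% and 45.6%. With the unthinned split, Irf7 stood at 282 against 76.3, 389 against 61.97 and 434 against 189 CPM. Monocytes of the Gzmb-cko library thus had the highest share of marked cells and, unthinned, the highest Irf7 outside them.

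Cycling microglia, with at least 2 of 8 cell cycle genes, had lower levels of all 9 members in each library. They were also deeper, at medians of 6036, 6834 and 7380 UMIs against 4411, 4914.5 and 5382. Whether the lower levels are particular to the members was not tested. Irf7 was at 26.1 against 34.0, 18.4 against 35.0 and 11.04 against 26.1 CPM in cycling and other microglia. Ifngr1 was at 278 against 345, 416 against 562 and 366 against 471 CPM. Cycling cells were 31.7%, 21.1% and 26.7% of microglia. Without them the Gzmb-cko to Ncr1-cre log2 ratio of Irf7 was -0.42.

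The rest of the pathway was described by lists, each with the genes that reached a mean of 10 CPM. For poly(I:C) over saline in microglia, 7 of 8 other receptors, kinases and STATs were higher, with 0 past 1.5-fold; the widest ratio was 1.40 (1.34 to 1.47) for Il10rb, which neighbours Ifnar1 and Ifnar2. All 7 other IRFs were higher and 0 were past 1.5-fold. Of 9 brakes on the chain 8 were higher and 1 past 1.5-fold: Socs3, a feedback inhibitor of cytokine receptors, at 29.8, 57.9 and 45.2 CPM, a ratio of 1.95 (1.80 to 2.11). Of 22 interferon-stimulated genes 15 were higher, with Herc6 (1.52-fold) and Ifit2 (1.53-fold) past 1.5-fold, and the list's median of 0.11 lay below the 0.17 of all genes. Of 8 genes linked to interferon gamma 7 were higher, 1 of them past 1.5-fold, the GTPase gene Irgm1 at 1.68 (1.498 to 1.89). Over all genes 4.17% were at least 1.5-fold higher in that comparison.

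In the Gzmb-cko microglia 16 of the 22 interferon-stimulated genes were lower and 4 of these at least 1.5-fold, where 2.19% of all genes were: Cxcl10, Ifit2, Isg20 and Ifit3. Cxcl10, a chemokine gene, was at 38.0, 51.7 and 19.2 CPM, with a Gzmb-cko to Ncr1-cre ratio of 0.372 (0.339 to 0.408), and Ifit2 at 10.4, 15.9 and 7.74 CPM, with a ratio of 0.488 (0.418 to 0.568). The median log2 ratio of the list was -0.28, and that of all genes -0.03. In Gzmb-cko border macrophages 16 of 24 such genes were higher, with 3 at least 1.5-fold higher and 2 lower, where 0.843% and 2.93% of all genes were. In monocytes 21 of 30 were higher with 2 past 1.5-fold, where 3.84% of all genes were. For poly(I:C) over saline in monocytes 26 of 30 were higher, 9 of them past 1.5-fold, where 13.9% of all genes were.

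The ligands were nearly absent from these cells. Ifnb1, encoding interferon beta, gave 6, 27 and 44 UMIs in 5, 3 and 6 cells, and Ifng gave 2, 2 and 0 UMIs. Of the 21 interferon genes on the list 16 had 0 UMIs in all 3 libraries.

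Across the 15 sums of 5 gates and 3 libraries, each member's nearest genes were found by Pearson's r of log2(CPM + 1) among 6071 genes with a mean of at least 20 CPM. The sums share libraries, depth and free RNA, so r is a description. The 3 nearest to Irf7 were Ifitm3 (r = 0.99), Lgals3 and Ms4a4c, and those nearest to Stat2 were Sp100 (r = 0.98), Samhd1 and Ifi203. Irf9 was nearest to Ctsc, Psmb9 and Eif4ebp1, and Irf1 to Gm2a, Alox5ap and Csf2ra. Ifngr1 was nearest to Cd302 (r = 0.99), Hps3 and Il6ra, Ifngr2 to Cd300a, Arpc4 and Capza2, Ifnar2 to Tnfrsf1a, Lyl1 and Neat1, Ifnar1 to Vps13d, Bnip2 and Ankfy1, and Jak1 to Ier2, Ehbp1l1 and Hmha1. All 27 values lay between 0.97 and 0.99.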

How the data were processed

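The deposited files were raw UMI count matrices (genes by barcodes) with gene and barcode lists, made by the authors with Cell Ranger, version 5.0.0 per the file headers and 3.0.1 per the submitters' processing notes, which also name STAR and mm10. Counts were read as deposited with Python 3.11.15. Kept cells (12148, 10759 and 13447) had 500 or more genes and no more than 10% mitochondrial UMIs; counts were summed by gate and library, scaled to CPM and compared with exact intervals, a difference of at least 1.5-fold being called. With 1 library a group no test was run. The background was every gene averaging 10 CPM or more across a gate's 3 libraries. Thinning drew 2000 UMIs per cell, and 0, 445 and 169 shallower microglia were left out (39, 471 and 177 where hemoglobin genes were set aside first). Doublets called by Scrublet (scanpy 1.11.5; 3.77%, 2.96% and 4.66% of kept cells) were removed only in an alternative. TMM factors came from edgeR 4.0.16. Ratios and intervals were tested on simulated data. All 9 members are named; listed genes were named by the widest ratios (at most 4 a list), and 3 nearest genes per member by r. Of 32 interferon-stimulated genes 31 were matched by symbol. Values of 1 listed gene are not reported here. Members and lists were chosen with earlier results of these data known.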

Additional observations from a re-analysis of the deposited data

Results flagged for a closer look

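For poly(I:C) over saline within the Ncr1-cre genotype, 3 members were at least 1.5-fold higher in a myeloid gate and at least 1.5-fold lower in the neuron gate. They are those with a mean of at least 10 CPM in both gates. In direction alone, Ifnar1, Ifngr2, Jak1 and Irf1 were likewise higher in all 3 myeloid gates and lower in the neuron gate. Ifngr1 stood at 1.63 in microglia, 1.55 in border macrophages and 1.69 in monocytes, but at 0.470 in neurons. Ifnar2 stood at 1.53 in border macrophages and 1.55 in monocytes, but at 0.507 in neurons. Irf9 stood at 1.53 in monocytes and at 0.387 in neurons. With 1 library a group the difference between gates was not tested. In the neuron gate 0 members had an interval for the share of cells above that of hemoglobin cells outside the gates, in any library. Those hemoglobin cells were not free of myeloid RNA, as given above. In the neuron gate all 9 members were lower with poly(I:C), 5 of them at least 1.5-fold, as were 14.1% of 8948 genes. For Gzmb-cko over Ncr1-cre, which shares the Ncr1-cre poly(I:C) library, all 9 were higher there, 7 of them at least 1.5-fold, as were 14.3% of genes. The summed level of the 7 microglial markers in that gate was 2889, 1145 and 2103 CPM (Ncr1-cre saline, Ncr1-cre poly(I:C), Gzmb-cko poly(I:C)), that of the 7 border macrophage markers 877, 356 and 1877 CPM, and 55, 54 and 34 of its cells also passed the microglial gate. Their part in the neuron values was not tested.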

How the results depend on the processing

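For poly(I:C) over saline in microglia, the median log2 ratio of the 9 members was 0.41 as reported, 0.24 with TMM, 0.23 with median of ratios, 0.30 as a mean of per-cell CPM, 0.28 with totals without mitochondrial, ribosomal and hemoglobin genes, and 0.26 in cells with Y genes and no Xist. Members at least 1.5-fold higher numbered 1 as reported, 0 with TMM, with median of ratios and with the reduced totals, and 2 in cells with Xist and no Y genes. Genes at least 1.5-fold higher or lower numbered 431 as reported, 287 with TMM, 727 in the Y cells and 1317 with a minimum of 1 CPM; the higher share of them was 75.9% as reported, 28.6% with TMM, 27.0% with median of ratios and 43.5% with the reduced totals. For Gzmb-cko over Ncr1-cre, the members' median was -0.14 as reported, -0.23 at 2000 UMIs per cell and -0.22 in the Xist cells. Members at least 1.5-fold lower numbered 0 as reported and 1 with a stricter cell filter, with cells in exactly 1 gate, with stricter gates and in the Xist cells, and genes past 1.5-fold numbered 193 as reported, 297 in the Y cells and 1192 with a minimum of 1 CPM. Of the values for single members in microglia and in monocytes over microglia, 468 stayed within their counting interval and 90 moved beyond it. The 468 include the microglial ratios at a minimum of 1 CPM, a setting that cannot change them. Among these values no called result reversed. The signs of Stat2 and Irf7 in microglia varied for poly(I:C) over saline, as given above. In the neuron gate, which these values leave out, Irf1 was lower as reported for poly(I:C) over saline and higher in 3 of 16 settings. For Gzmb-cko over Ncr1-cre in that gate, Irf1 and Irf9 were higher as reported and each lower in 1 of 16 settings. No paired analysis was possible because each group has 1 library, and for the same reason no library could be left out. Depth limits the sparse values, such as Irf7 in neurons, which rests on 21, 9 and 16 UMIs.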
